A study of Homo sapiens with 2 samples.

Results

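Genes for the import of proteins into mitochondria, for their folding and breakdown inside the organelle, and for copying and reading its genome were followed in P493-6 cells, a human B cell line that carries a c-Myc transgene repressed by tetracycline. The set held every gene symbol that starts with TIMM or TOMM and a digit, plus 26 named chaperone, protease, transcription and replication genes, which gave 48 genes of the 19096 symbols in the deposited tables. The high c-Myc sample was taken 24 h after tetracycline repression of the transgene was lifted, and the low c-Myc sample 0 h after it. Both came from the same cell line, labelled as B-cell lymphoma and grown in RPMI medium with serum. Each group held 1 library of polyadenylated RNA, so without replicates no test between them was possible and all values are a description of those libraries.

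Almost all mitochondrial proteins are made in the cytosol and carried through the outer membrane by the TOM complex and through the inner membrane by the TIM23 or TIM22 complex. In the matrix, chaperones fold them and proteases remove targeting peptides and damaged chains. The small mitochondrial genome encodes core subunits of the respiratory chain, and its transcription and replication rest on a dedicated polymerase set made in the nucleus. The transcription factor c-Myc recognises E-boxes, of which CACGTG is the canonical form, and many genes of mitochondrial biogenesis are known as its targets in proliferating cells.

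Values are RPKM, read numbers divided by transcript length and by sequencing depth, and ratios are high over low c-Myc of log2(RPKM + 0.5), which understates differences of weakly expressed genes. A gene counted as measured at a mean RPKM of at least 1 over both libraries, and as higher or lower at a log2 ratio at or beyond 1 or -1, that is 2-fold. The steps between the lowest values implied about 105500000 reads in the high c-Myc library, against 103000000 in the low c-Myc library. Synthetic RNAs were added by cell number, and the median of 46 of them was 5.88-fold lower in the high c-Myc library (log2 ratio -2.56, interquartile range -2.84 to -2.17). Subtracting that value gives ratios per cell, averaged over all cells of a sample. MYC itself stood at an RPKM of 2358 in the high c-Myc library, against 836 in the low one. All 6 B cell markers lay above an RPKM of 1 in both libraries, between 39.8 and 460 in the high c-Myc library and between 68.5 and 1202 in the low one. Of 4 T cell markers, 1 and 2 reached an RPKM of 1 in the high and low c-Myc libraries, with summed levels of 1.63 and 10.4 and with CD3D and CD8A at 0. Of 4 myeloid markers, 3 did so in each library, with sums of 35.6 and 151. No erythroid or platelet marker did, and of 4 fibroblast and epithelial markers 2 and 1 did, with sums of 10.3 and 8.53. The part of these markers in the values below was not tested.

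The promoters of 6 members are shown because they belong to members on which the results turn. HSPE1 encodes the HSP10 co-chaperonin, HSPA9 the import motor and LONP1 a matrix protease, and their promoters hold the E-box. It was in only 7 of the 42 member promoters searched. Among them was that of TOMM20, which stayed short of 2-fold, and not those of POLRMT, PHB and TRAP1, which had the highest ratios. PMPCA and PMPCB encode the 2 subunits of 1 enzyme and differed in their ratios, and POLRMT had the highest ratio of the set. Each runs from 250 bases before to 50 bases after the gene start, 5′ to 3′ on the gene's strand, from RefSeq on GRCh38.p14. Capitals mark CACGTG (E-box), GCGCA and GCGC with any base between them (NRF1) and CCGGAAG (ETS), searched on both strands, where matches may overlap.
HSPE1, chr2:197500129-197500428, plus strand: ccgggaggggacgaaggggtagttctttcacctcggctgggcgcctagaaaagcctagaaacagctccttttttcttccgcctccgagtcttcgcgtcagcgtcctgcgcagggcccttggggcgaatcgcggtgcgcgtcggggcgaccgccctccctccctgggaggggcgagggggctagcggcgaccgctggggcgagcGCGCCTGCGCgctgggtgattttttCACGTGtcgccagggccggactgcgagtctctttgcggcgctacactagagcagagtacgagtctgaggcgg
HSPA9, chr5:138575352-138575651, minus strand: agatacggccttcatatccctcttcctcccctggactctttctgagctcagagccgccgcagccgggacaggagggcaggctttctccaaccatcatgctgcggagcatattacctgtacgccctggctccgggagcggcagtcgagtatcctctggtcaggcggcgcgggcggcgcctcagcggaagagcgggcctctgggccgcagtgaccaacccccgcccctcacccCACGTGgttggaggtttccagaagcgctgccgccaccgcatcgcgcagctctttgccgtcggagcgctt
LONP1, chr19:5720097-5720396, minus strand: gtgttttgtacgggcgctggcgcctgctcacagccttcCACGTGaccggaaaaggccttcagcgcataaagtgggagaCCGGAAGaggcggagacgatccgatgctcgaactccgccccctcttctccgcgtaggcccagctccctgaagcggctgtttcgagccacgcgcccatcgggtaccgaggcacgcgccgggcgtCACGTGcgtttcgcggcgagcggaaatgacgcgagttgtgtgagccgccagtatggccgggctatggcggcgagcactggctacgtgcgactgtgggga
PMPCA, chr9:136410408-136410707, plus strand: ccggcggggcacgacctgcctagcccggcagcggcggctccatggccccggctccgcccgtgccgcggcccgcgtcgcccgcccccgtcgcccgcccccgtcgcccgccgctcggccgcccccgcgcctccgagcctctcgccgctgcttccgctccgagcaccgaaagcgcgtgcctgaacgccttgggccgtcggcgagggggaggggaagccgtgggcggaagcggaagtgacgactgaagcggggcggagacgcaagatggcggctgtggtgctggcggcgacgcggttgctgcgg
PMPCB, chr7:103297185-103297484, plus strand: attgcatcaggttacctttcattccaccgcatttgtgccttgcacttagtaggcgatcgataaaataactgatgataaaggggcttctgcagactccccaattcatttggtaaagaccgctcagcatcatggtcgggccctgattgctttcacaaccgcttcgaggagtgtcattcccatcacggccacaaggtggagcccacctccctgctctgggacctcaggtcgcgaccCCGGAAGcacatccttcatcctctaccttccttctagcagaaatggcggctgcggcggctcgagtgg
POLRMT, chr19:633488-633787, minus strand: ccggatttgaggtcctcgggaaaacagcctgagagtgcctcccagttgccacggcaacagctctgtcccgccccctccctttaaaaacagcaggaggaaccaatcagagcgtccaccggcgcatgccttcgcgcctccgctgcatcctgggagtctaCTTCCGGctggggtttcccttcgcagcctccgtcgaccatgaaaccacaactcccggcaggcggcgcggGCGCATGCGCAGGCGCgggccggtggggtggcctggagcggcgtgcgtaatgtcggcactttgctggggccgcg

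Most of the set reached the 2-fold line under high c-Myc and no member was 2-fold lower. Of the 48 genes 47 were measured, and TOMM20L, a relative of TOMM20, was not, with an RPKM of 0 in the high c-Myc library, against 0.13 in the low one. Of the 47, 34 (72.3%) were at least 2-fold higher, against 24.9% of the 10272 measured genes of the tables, and 0 were 2-fold lower, against 9.74%. At least 4-fold higher were 12 of 47 (25.5%), against 7.86% of all measured genes, and 44 of 47 (93.6%) had a log2 ratio above 0, against 58.6%. The median log2 ratio was 1.54 (range -0.24 to 3.65), against 0.22 over all measured genes. The summed RPKM of the 47 was 2333 in the high c-Myc library, against 616 in the low one, a ratio of 3.79, against 1.31 for all measured genes. Under 3 other scalings (centring on the median, equal RPKM totals and quantile normalization), 28, 27 and 24 of the 34 reached 2-fold. The shares of all measured genes were then 19.8%, 18.5% and 17.5%. In bulk RNA, a change in the mix of cells and a change in RNA within each cell cannot be told apart. The per-cell ratios below are averages over all cells of a sample.

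**Figure D1:**
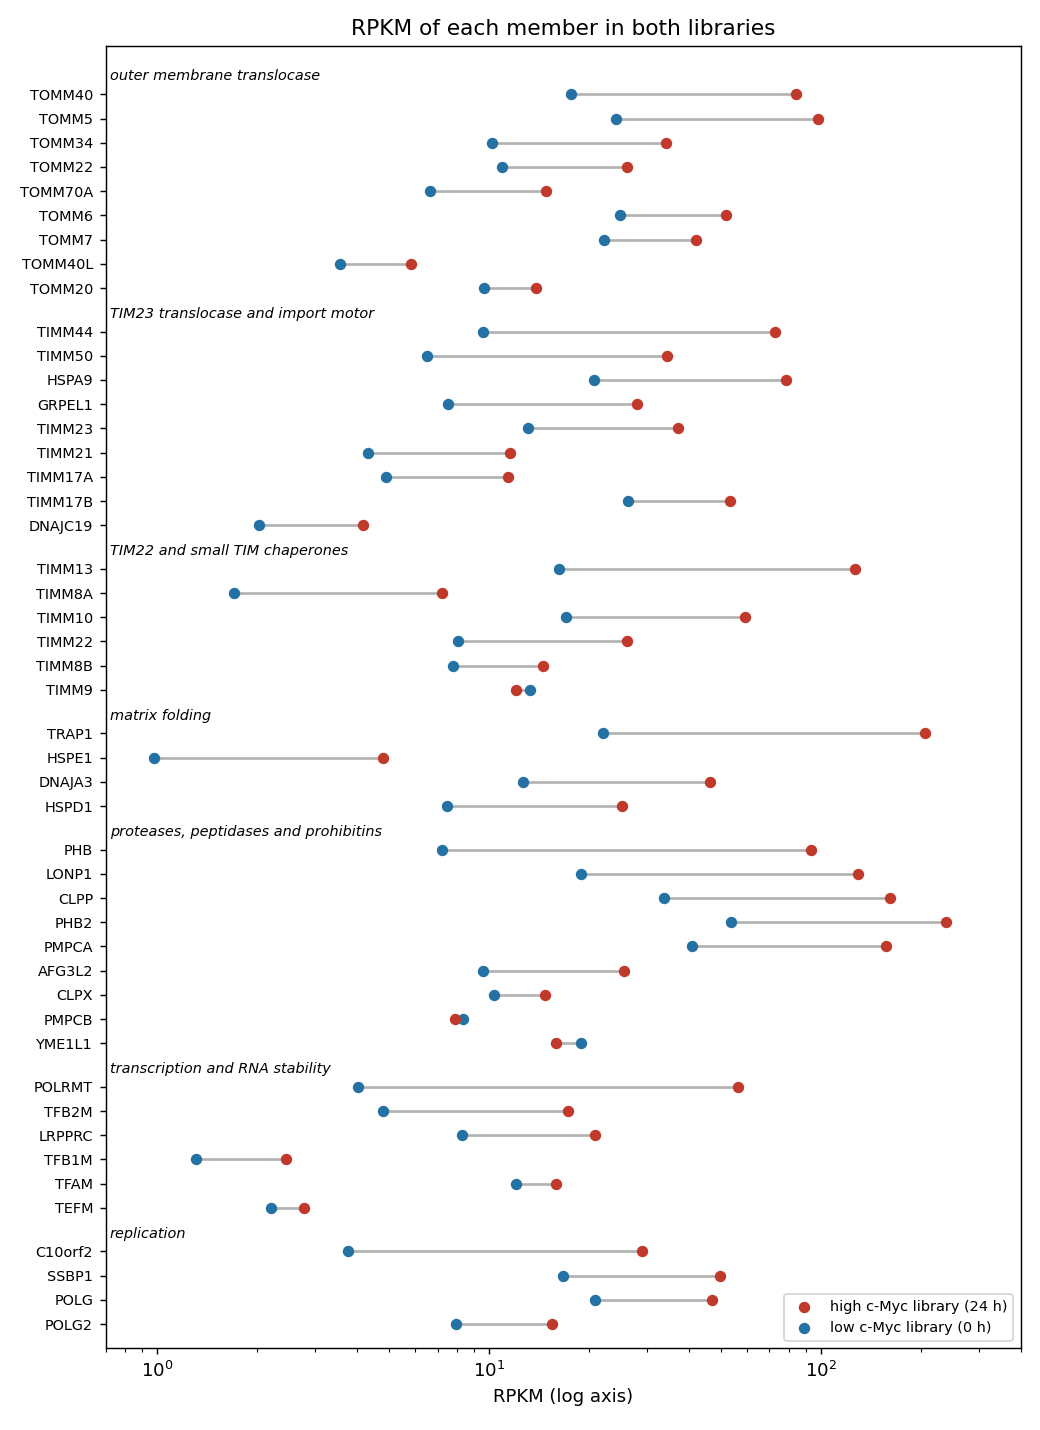
RPKM (log axis) of the 47 measured members, red for the high c-Myc library and blue for the low one, with 1 library each, grouped by role and sorted by log2 ratio. In all but TIMM9, PMPCB and YME1L1 the red point lies right of the blue one, and POLRMT, PHB and TRAP1 have the widest gaps.

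All 9 measured TOMM genes had log2 ratios above 0, and 6 of the 9 were at least 2-fold higher, against 24.9% of all measured genes. TOMM40, the channel (NM_006114), had an RPKM of 84.1 in the high c-Myc library, against 17.6 in the low one, a 4.77-fold higher level with a 95% counting interval of 4.59 to 4.96. TOMM5, a small subunit that sits beside the channel, had 98.3 in the high and 24.1 in the low c-Myc library, a log2 ratio of 2.01. TOMM34, a cytosolic co-chaperone of import, had 34.3 and 10.2 in the high and low c-Myc libraries, a log2 ratio of 1.70. All 3 were thus more than 3-fold higher. Of the receptors, TOMM22, the central receptor, had an RPKM of 26 and 10.9 in the high and low c-Myc libraries, a log2 ratio of 1.21. TOMM70A, the receptor for carrier proteins, had 14.9 and 6.65 in the high and low c-Myc libraries, a log2 ratio of 1.11. TOMM20, the receptor for targeting peptides, had 13.8 and 9.66, a log2 ratio of 0.49, short of 2-fold. The small subunits TOMM6 and TOMM7 lay on either side of the 2-fold line. TOMM6 had an RPKM of 51.7 and 24.8 in the high and low c-Myc libraries (log2 ratio 1.04) and TOMM7 had 42.2 and 22.2 (log2 ratio 0.91). TOMM40L, a second channel gene, was weakly expressed in both libraries, at 5.84 in the high and 3.56 in the low c-Myc library (log2 ratio 0.64). The median log2 ratio of the 9 genes was 1.11. After a correction for GC content TOMM40 lay at 1.28, among the receptors TOMM70A (1.43) and TOMM22 (1.31), while TOMM5 was at 2.26.

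The TIM23 translocase carries proteins with targeting peptides through the inner membrane, and 8 of its 9 genes were at least 2-fold higher, against 24.9% of all measured genes, with a median log2 ratio of 1.46. TIMM44, which tethers the motor to the channel, had the highest ratio, with an RPKM of 72.8 in the high c-Myc library, against 9.59 in the low one, a 7.59-fold higher level (counting interval 7.25 to 7.95). TIMM50, the receptor that faces the space between the membranes, had 34.5 in the high and 6.50 in the low c-Myc library, a 5.30-fold higher level (5.04 to 5.58). The ATPase of the motor and its exchange factor moved by nearly the same ratio. HSPA9 had 78.7 in the high and 20.7 in the low c-Myc library (log2 ratio 1.90), and GRPEL1, which swaps its nucleotide, had 27.97 and 7.51 (log2 ratio 1.83). TIMM23, the channel subunit, had 37.1 in the high and 13.1 in the low c-Myc library (log2 ratio 1.46), although its reads can be shared with a near-identical gene copy. TIMM21, which links TIM23 to the outer membrane, had 11.6 and 4.31 (log2 ratio 1.33). The paralog subunits TIMM17A and TIMM17B both lay just above 2-fold on the deposited scale, and below it under the 3 other scalings tried. TIMM17A had an RPKM of 11.4 and 4.89 in the high and low c-Myc libraries (log2 ratio 1.14), and TIMM17B had 53.1 and 26.2 (log2 ratio 1.01), the lowest ratio among the members counted as higher. The GC correction set them apart, with log2 ratios of 1.52 for TIMM17A and 0.46 for TIMM17B. DNAJC19, the human counterpart of the yeast J-protein Pam18, had 4.17 and 2.03 (log2 ratio 0.88), and 9 annotated pseudogenes carry its name.

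Membrane carriers take another route, through the small TIM chaperones and TIM22, and here members split. TIMM13, a small chaperone that pairs with TIMM8A, had an RPKM of 127 in the high c-Myc library, against 16.3 in the low one, a 7.82-fold higher level (counting interval 7.54 to 8.11). Exons of TIMM13 share bases with LMNB2 on the same strand and with TMPRSS9 on the opposite one. The interval does not cover reads from those genes. TIMM8A, lost in deafness-dystonia syndrome, had 7.23 in the high and 1.70 in the low c-Myc library (log2 ratio 1.81). TIMM8B, its paralog, had 14.6 and 7.79 (log2 ratio 0.86) and so stayed short of 2-fold. TIMM10 and TIMM9, which form 1 mixed ring, went apart. TIMM10 had 58.9 in the high and 17.1 in the low c-Myc library (log2 ratio 1.76), while TIMM9 had 12.1 in the high and 13.3 in the low c-Myc library, a ratio of 0.906 (counting interval 0.848 to 0.969) whose direction turned after a correction for GC content (log2 0.20). TIMM22, the channel of this route, had 26 and 8.07 (log2 ratio 1.63). In all, 4 of these 6 genes were at least 2-fold higher, against 24.9% of all measured genes.

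All 4 matrix folding genes were at least 2-fold higher, against 24.9% of all measured genes, with a median log2 ratio of 1.84. TRAP1, the mitochondrial relative of HSP90 (NM_016292, chromosome 16: 3651639 to 3717597 on GRCh38), had an RPKM of 207 in the high c-Myc library, against 22.01 in the low one, a 9.40-fold higher level (counting interval 9.13 to 9.67). It ranked 177 of the 10272 measured genes in the high c-Myc library, against 2118 in the low one. The chaperonin HSPD1 had 25.2 in the high and 7.49 in the low c-Myc library (log2 ratio 1.69), and its lid HSPE1 had 4.79 and 0.98 (log2 ratio 1.84). Their levels are uncertain, since 17 annotated pseudogenes carry the name of HSPD1 and 26 that of HSPE1, and the sources used here do not say how reads with several matches were treated. The counting interval of the HSPE1 ratio was wide, 3.91-fold to 6.14-fold around 4.90-fold, from about 480 and 96 reads. It covers counting error only and not the treatment of reads with several matches. DNAJA3, a J-protein partner of HSPA9, had 46.4 in the high and 12.7 in the low c-Myc library (log2 ratio 1.83). The HSPD1 and HSPE1 starts lie 105 bases apart on chromosome 2 and face away from each other, so both promoter windows hold the same E-box, the one printed in the HSPE1 sequence.

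Proteases, processing peptidases and prohibitins covered the widest range, from the second highest to the lowest ratio of the set. PHB, which builds the prohibitin ring of the inner membrane with PHB2 (NM_002634, chromosome 17: 49404049 to 49414905 on GRCh38), had an RPKM of 93.5 in the high c-Myc library, against 7.21 in the low one, a 13.0-fold higher level (counting interval 12.3 to 13.7). PHB2 had 239 in the high and 53.5 in the low c-Myc library (log2 ratio 2.15) and was the most abundant member in both. PHB shares its name with 21 annotated pseudogenes and PHB2 with 1, so the level of PHB is uncertain as are those of HSPD1 and HSPE1. Among the soluble matrix proteases, LONP1 had 129 in the high and 19.01 in the low c-Myc library, a 6.79-fold higher level (6.62 to 6.97). CLPP, a barrel-shaped peptidase, had 161 and 33.8 in the high and low c-Myc libraries (log2 ratio 2.24). CLPX, the ATPase that feeds it, had 14.8 and 10.4 (log2 ratio 0.49). The inner membrane proteases differed in the same way. AFG3L2, which faces the matrix, had 25.6 in the high and 9.62 in the low c-Myc library (log2 ratio 1.36), while YME1L1, which faces the space between the membranes, had 15.9 in the high and 18.9 in the low c-Myc library, a ratio of 0.843 (counting interval 0.816 to 0.870) that also turned after the GC correction (log2 0.14). The peptidase that cuts off targeting peptides consists of PMPCA and PMPCB. PMPCA had 157 in the high and 41.1 in the low c-Myc library (log2 ratio 1.93), and PMPCB had 7.92 in the high and 8.33 in the low c-Myc library (log2 ratio -0.07, RPKM ratio 0.951 with a counting interval of 0.894 to 1.01, and log2 0.31 after the GC correction). In all, 6 of these 9 genes were at least 2-fold higher, against 24.9% of all measured genes.

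**Figure D2:**
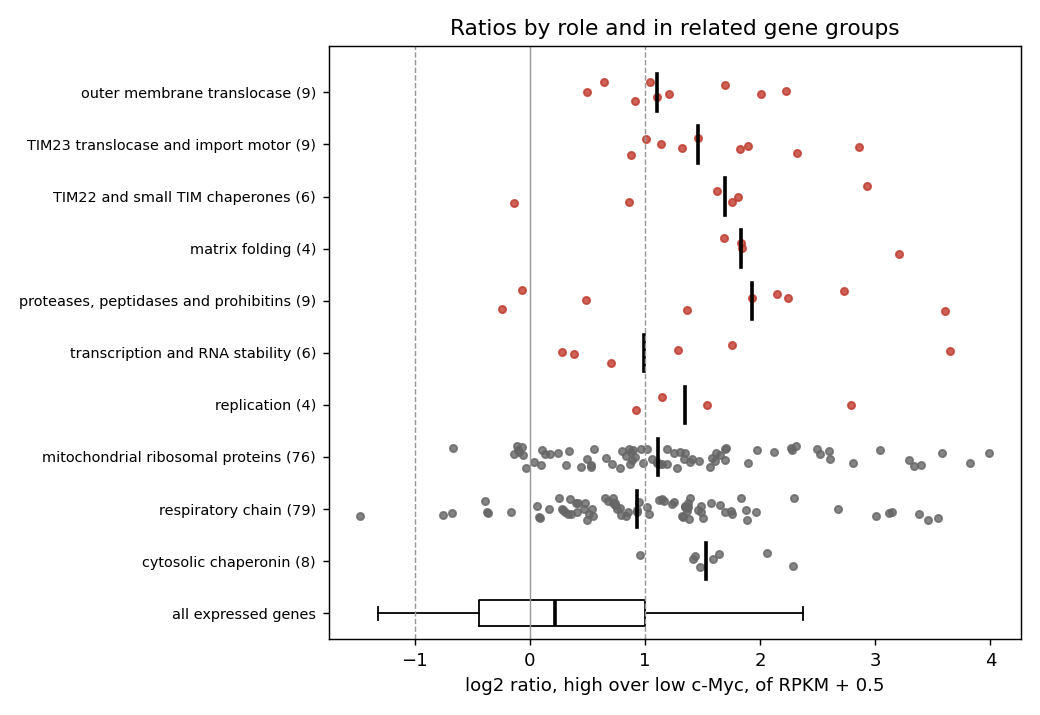
Log2 ratio of RPKM + 0.5, high over low c-Myc, with 1 point per measured gene and a black bar at each group's median, the number of genes in brackets. Red rows are the roles within the set, grey rows are related gene groups, and the box shows all measured genes (quartiles, whiskers from percentile 5 to 95). Every red median lies above the median of all measured genes, 0.22, and that of transcription and RNA stability, 0.99, is the lowest red one.

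Of the genes that read the mitochondrial genome, the polymerase had the highest ratio. POLRMT, the mitochondrial RNA polymerase (NM_005035, chromosome 19: 617224 to 633604 on GRCh38), had an RPKM of 56.3 in the high c-Myc library, against 4.02 in the low one, a 14.0-fold higher level (counting interval 13.3 to 14.8). TFB2M, which opens the promoter with it, had 17.3 and 4.79 in the high and low c-Myc libraries (log2 ratio 1.75). TFAM, which bends and packages the genome, had 15.9 in the high and 12.1 in the low c-Myc library (log2 ratio 0.38), a direction that quantile normalization turned (-0.04). TEFM, the elongation factor, had 2.78 in the high and 2.20 in the low c-Myc library (log2 ratio 0.28). TFB1M, a relative of TFB2M that methylates the small ribosomal RNA, had 2.44 and 1.31 (log2 ratio 0.70). LRPPRC, which stabilizes mitochondrial messenger RNAs, had 20.9 and 8.27 (log2 ratio 1.28). After the GC correction the log2 ratios were closer, at 2.30 for POLRMT, 2.08 for TFB2M and 1.61 for LRPPRC. On that scale TFB1M lay at 0.99, TFAM at 0.90 and TEFM at 0.37, all short of 2-fold. In the high c-Myc library POLRMT had a higher RPKM than TFAM, and in the low c-Myc library a lower one. In all, 3 of these 6 genes were at least 2-fold higher, against 24.9% of all measured genes.

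Among the replication genes, the helicase stood apart. C10orf2, the Twinkle helicase (NM_021830), had an RPKM of 29.02 in the high c-Myc library, against 3.77 in the low one, a 7.70-fold higher level (counting interval 7.29 to 8.15). SSBP1, which coats single strands, had 49.7 and 16.8 in the high and low c-Myc libraries (log2 ratio 1.54). POLG, the catalytic subunit of the DNA polymerase, had 46.9 and 20.9 (log2 ratio 1.15), and POLG2, its accessory subunit, had 15.5 and 7.94 (log2 ratio 0.92), the highest ratio among the members not counted as higher. Both polymerase subunits thus lay close to 2-fold. The 4 rows of C10orf2 had log2 ratios from 2.40 to 2.79, the widest spread among the 12 members with several transcript rows.

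The balance of partner subunits differed between the libraries in some pairs and hardly in others. The RPKM ratio of PMPCA over PMPCB was 19.9 in the high c-Myc library, against 4.93 in the low one, so it was 4.03-fold larger. TIMM10 over TIMM9 was 4.88 in the high and 1.28 in the low c-Myc library, 3.80-fold larger. PHB over PHB2 was 0.391 and 0.135 in the high and low c-Myc libraries, 2.90-fold larger, with PHB2 above PHB in both. The level of PHB is uncertain because of its pseudogenes, and PHB2 had no GC value for a corrected ratio. In the high and low c-Myc libraries TOMM40 over TOMM40L was 14.4 and 4.95, 2.91-fold larger, TIMM8A over TIMM8B was 0.496 and 0.219, 2.27-fold larger, and TFB2M over TFB1M was 7.10 and 3.66, 1.94-fold larger. CLPX over CLPP ran the other way, at 0.0915 in the high and 0.308 in the low c-Myc library, and HSPD1 over HSPE1 was 5.26 in the high and 7.66 in the low c-Myc library. Some of these gaps were smaller after the GC correction. GC-corrected log2 ratios were 0.82 for CLPX and 1.30 for CLPP, 1.71 for PMPCA and 0.31 for PMPCB, and 1.28 for TOMM40 and 0.60 for TOMM40L. HSPD1 and HSPE1 lay at 2.01 and 1.99 on that scale, so their gap was no longer seen. The levels of HSPD1 and HSPE1 are also uncertain because of their pseudogenes. The other 3 pairs differed little between the libraries on the deposited scale. HSPA9 over GRPEL1 was 2.81 in the high and 2.76 in the low c-Myc library, POLG over POLG2 was 3.03 and 2.63, and TIMM17A over TIMM17B was 0.214 and 0.186.

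**Figure D3:**
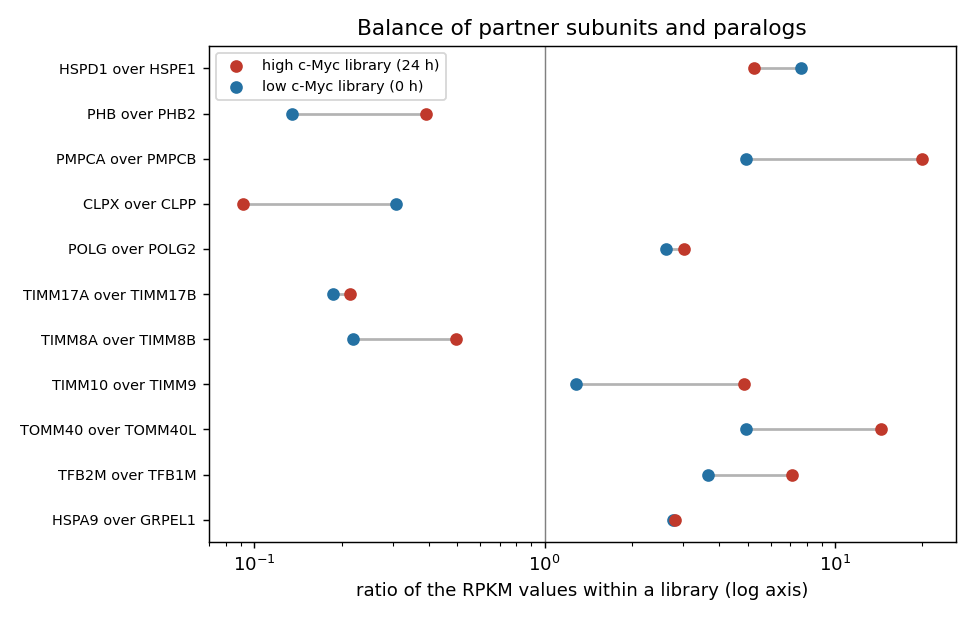
Ratio of the RPKM of 2 partner subunits or paralogs within a library (log axis), red for the high c-Myc library and blue for the low one. The points of HSPA9 over GRPEL1 nearly coincide, at 2.81 and 2.76, while those of PMPCA over PMPCB lie at 19.9 and 4.93.

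Per cell, every measured member was higher in the high c-Myc sample, as were most genes. Once scaled by the synthetic RNAs, 47 of 47 were at least 2-fold higher, against 97.1% of all measured genes, and 0 were 2-fold lower, against 0.0876%, so these counts are near the background. The median log2 ratio per cell was 4.10, against 2.78 over all measured genes. The RPKM ratios per cell ran from 4.96-fold for YME1L1 to 82.5-fold for POLRMT. PMPCB and TIMM9, both near 1 on the deposited scale, were 5.59-fold and 5.33-fold higher per cell, and TFAM was 7.73-fold higher. PHB was 76.3-fold, TRAP1 55.3-fold, LONP1 40.0-fold, HSPA9 22.3-fold and POLG 13.2-fold higher per cell. These folds rest on the median of the synthetic RNAs, whose log2 ratios had an interquartile range of -2.84 to -2.17. On that scale the log2 ratios of YME1L1, POLRMT and PHB were 2.32, 6.21 and 6.17. In the column renormalized by the authors they were 1.91, 5.68 and 5.74. All 47 members were at least 2-fold higher in that column too, where the share of all measured genes was below 97.1%.

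Ratios of the members went with the GC content of their transcripts. Across the 46 measured members with a GC value, the Spearman correlation of GC content with the log2 ratio had a rho of 0.69, and across 9948 measured genes it was 0.41, where all points share the same 2 libraries. The members' GC content ran from 38.4% for TFAM to 66.3% for POLRMT, with a median of 46.9%, against 50.3% over all measured genes. It had a median of 51.6% among the members counted as higher and 43.1% among the other measured ones. Within the most AT-rich of 4 equal GC bins, 7 of 13 members were at least 2-fold higher, against 8.81% of all genes there. In the most GC-rich bin it was 9 of 9, against 48.4% of all genes there.

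After a correction for GC content, 34 of 46 members were at least 2-fold higher, against 22.2% of all measured genes. POLG (0.87) and TIMM17B (0.46) left that count, and DNAJC19 (1.17), POLG2 (1.02) and TOMM7 (1.16) entered it. The log2 ratios of several GC-rich members were smaller after it, at 2.30 for POLRMT, 1.79 for LONP1, 1.30 for CLPP, 1.28 for TOMM40 and 1.99 for TIMM13. PHB (3.56), TRAP1 (2.92) and C10orf2 (2.74) then had the highest values. TIMM9, PMPCB and YME1L1 lay at 0.20, 0.31 and 0.14, so that no member was below 0 on that scale.

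**Figure D4:**
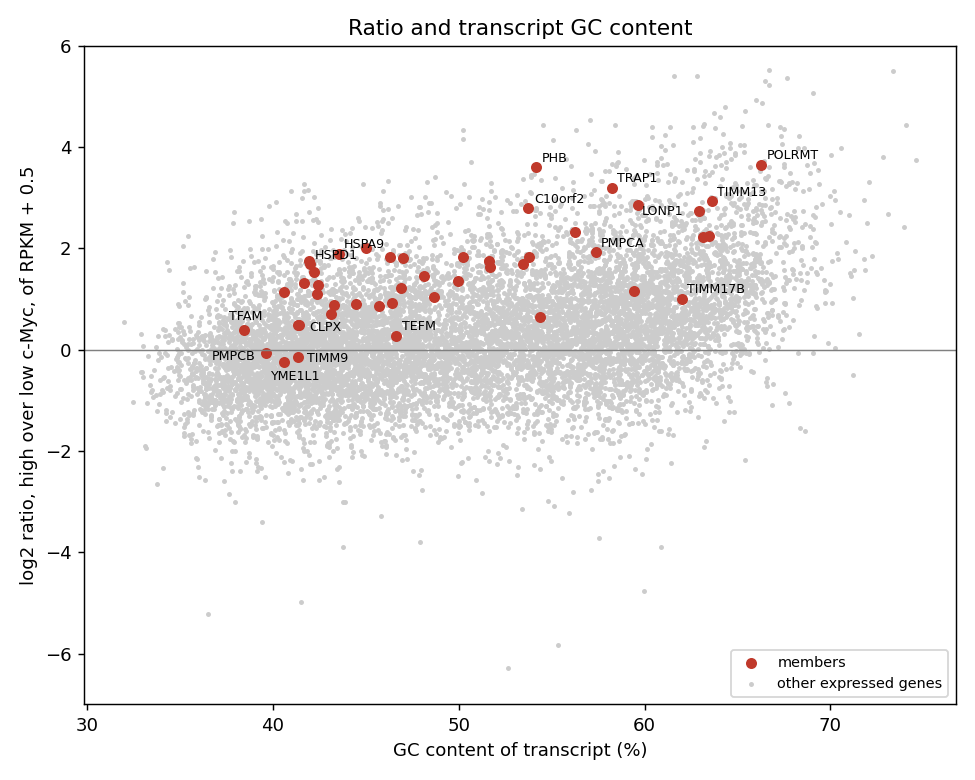
Log2 ratio of RPKM + 0.5, high over low c-Myc, against transcript GC content in percent, in red for the 46 members with a GC value and in grey for the other measured genes. POLRMT lies at 66.3% GC and TFAM at 38.4%, and rho across the members is 0.69.

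Promoter letters were matched for 42 of the 48 members. C10orf2, CLPP, GRPEL1, TIMM8B, TOMM5 and YME1L1 had no entry. The E-box CACGTG was in 7 of the 42 windows (16.7%), against 10.8% of 8529 promoters of measured genes and 7.43% of all 27305 promoters. The 7 were those of HSPA9, HSPD1, HSPE1, LONP1, TIMM10, TIMM8A and TOMM20, and LONP1 had 2 matches, starting 212 and 49 bases before the gene start. Of these 7, all but TOMM20 were at least 2-fold higher, where 34 of all 47 measured members were, and 299 of the 919 measured genes with an E-box. The NRF1 letters, bound by a regulator of respiratory genes, were in 12 windows (28.6%), against 12.9% of the promoters of measured genes and 6.28% of all promoters. They were in 6 of 30 windows of members counted as higher, against 14.7% of the promoters of all genes counted as higher, and in 6 of 11 windows of the other measured members, a difference that was not tested. The windows of HSPD1 and HSPE1 overlap and share their E-box and their NRF1 match, so each of these sites is counted for both genes. The ETS letters CCGGAAG were in 17 windows (40.5%), against 21.6% and 10.7%. POLRMT had overlapping NRF1 matches near its start and 1 ETS match, PMPCB had 1 ETS match, and PMPCA held none of the 3 motifs in its window.

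Other genes of the same pathway, from a list that left out the members, were spread more widely. Of 53 measured genes, 25 were at least 2-fold higher, against 24.9% of all measured genes, and 2 were 2-fold lower, against 9.74%. Their median log2 ratio was 0.89. ATAD3B and ATAD3A, near-identical inner membrane ATPases linked to the organelle's genome, had the highest ratios. ATAD3B had an RPKM of 143 in the high c-Myc library, against 8.27 in the low one (log2 ratio 4.04, and 2.69 after the GC correction), and ATAD3A had 163 and 10.6 (log2 ratio 3.88, and 2.94 after it). PAM16, a partner of DNAJC19 in the import motor, had 75.8 and 5.34 in the high and low c-Myc libraries (log2 ratio 3.71). RRM2B and C20orf72 had the lowest ratios, and after the GC correction neither was 2-fold lower. RRM2B, a ribonucleotide reductase subunit, had 3.65 in the high and 9.33 in the low c-Myc library (log2 ratio -1.24, and -0.92 after the GC correction). C20orf72, which encodes a mitochondrial exonuclease, had 11.2 in the high and 25.2 in the low c-Myc library (log2 ratio -1.13, and -0.88 after the GC correction). Of 14 other import genes 7 were higher, of 10 other proteases and quality control genes 5, and of 23 other genome and RNA genes 10.

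The 53 genes included 6 measured nuclear regulators of these genes. Of the 6, 3 were at least 2-fold higher, against 24.9% of all measured genes, and 0 were 2-fold lower, against 9.74%. After the GC correction 2 of the 6 were at least 2-fold higher, against 22.2% of all measured genes. PPRC1, a coactivator of the PGC-1 family, had an RPKM of 41.9 in the high c-Myc library, against 7.01 in the low one (log2 ratio 2.50), and PPARGC1B of the same family had 6.70 and 1.91 (log2 ratio 1.58, and 1.03 after the GC correction). ESRRA, a nuclear receptor that works with them, had 50.5 and 14.7 in the high and low c-Myc libraries (log2 ratio 1.75, and 0.80 after the GC correction). PPARGC1A was listed at 0 in both libraries. The DNA-binding factor NRF1 had 5.15 in the high and 5.35 in the low c-Myc library (log2 ratio -0.05). GABPA, which binds ETS letters, had 3.73 in the high and 6.30 in the low c-Myc library (log2 ratio -0.68, and 0.02 after the GC correction), and its partner GABPB1 had 7.48 and 4.37 (log2 ratio 0.71).

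Related gene groups had median log2 ratios between 0.93 and 1.53, and are set here against the 24.9% of all measured genes counted as higher and the 9.74% counted as lower. Of 76 mitochondrial ribosomal protein genes 42 were at least 2-fold higher and 0 were 2-fold lower. Their median log2 ratio was 1.12. Of 79 measured respiratory chain genes 38 were 2-fold higher and 1 was lower; their median was 0.93. Of the 8 genes of the cytosolic chaperonin, which folds actin and tubulin, 7 were higher, with a median of 1.53, close to the 1.54 of the set. The difference between these groups and the set was not tested.

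Shared or overlapping sequence touched many members. Of the 48 genes, 17 have at least 1 annotated pseudogene of their name, 21 share exon bases with a protein-coding gene on the opposite strand and 4 with one on the same strand, by GENCODE release 29. Among the 17 members with neither, 14 were at least 2-fold higher, against 24.9% of all measured genes, with a median log2 ratio of 1.70. These include TIMM23, whose reads can be shared with a near-identical gene copy, since such copies were not counted here. Among the 17 with a named pseudogene, 11 were, with a median of 1.36, and the difference was not tested. The 4 with a same-strand overlap were TIMM13, HSPE1, TOMM5 and TOMM6. TRAP1, LONP1, C10orf2 and PMPCA were among the 21 with an overlap on the opposite strand. So were TIMM9, PMPCB and YME1L1, the measured members with log2 ratios below 0. The use of strand in counting is not known, and the ratios of PMPCA over PMPCB and of TIMM10 over TIMM9 carry that limit.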

How the data were processed

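Polyadenylated RNA of 2 P493-6 samples was sequenced, with strand-keeping dUTP libraries amplified by 15 PCR cycles, per the labels' protocols. Per the submitters' processing notes, Bowtie and build hg18 were used; the sources used here do not give the counter, annotation, use of strand or handling of reads with several matches. The authors deposited RPKM values per transcript and a second RPKM column renormalized with the synthetic RNAs, per the file headers, and that column was used only as an alternative. RPKM values are not counts, so no count model was used.

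Of several rows per symbol, that of highest mean RPKM was kept. The pseudocount was 0.5. Members and lists were chosen with earlier results of these data known. Every member is named, and of the other pathway genes the highest and lowest ratios and the nuclear regulators. Depth was taken as the read total at which RPKM times length gave most nearly whole reads: 46.2% and 49.3% of low-count transcripts in the high and low c-Myc libraries gave read numbers at most 0.05 from an integer, where chance gives 10%. Approximate reads, from GENCODE 29 lengths matched by RefSeq accession, gave exact binomial 95% intervals of RPKM ratios without pseudocount; they cover counting error only, and PCR copies are not independent. PHB2 had no matched length. The GC correction subtracted medians of 20 equal bins. For HSPD1 the first of its listed promoters was used. Tools were matplotlib 3.10.9, pandas 2.3.3, scipy 1.17.1, numpy 2.4.6 and Python 3.11.15.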

Additional observations from a re-analysis of the deposited data

How the results depend on the processing

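The main values were 34 members at least 2-fold higher and a median log2 ratio of 1.54 on the deposited scale, and a median of 4.10 per cell. Centring on the median of all measured genes gave 28 members and a median of 1.32, setting the RPKM totals equal, synthetic RNAs left out, gave 27 and 1.23, and quantile normalization gave 24 and 1.07, while the share of all measured genes counted as higher was 19.8%, 18.5% and 17.5%. POLG, TIMM17A, TIMM17B, TOMM22, TOMM6 and TOMM70A fell short of 2-fold under all 3, LRPPRC under equal totals and quantile normalization, and AFG3L2, SSBP1 and TIMM23 under the last of these. A mean RPKM of at least 5 gave medians of 1.63 on the deposited scale and 4.19 per cell. The column renormalized by the authors gave a median of 3.63 per cell. Under the pseudocounts, filters, row choices, scalings and GC correction tried, the number of members 2-fold lower was 0. TIMM17B left the count of higher members under a pseudocount of 1 and under the mean of all rows, and DNAJC19 entered it without a pseudocount. A threshold of 3-fold in place of 2-fold gave 23 members on the deposited scale, against 13.0% of all measured genes, and one of 1.5-fold gave 40, against 36.8%. TFAM under quantile normalization and TIMM9, PMPCB and YME1L1 under the GC correction were the members whose direction turned, and their causes were not tested. The fewest approximate reads behind a measured member were 268 in the high and 96 in the low c-Myc library. No paired analysis was possible because each group held 1 library.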
